A study of Mus musculus with 8 samples.

Results

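The polypyrimidine tract binding protein (PTBP) family was followed through its 3 genes, *Ptbp1*, *Ptbp2* and *Ptbp3*, which were taken by their symbols from the 40840 genes counted in each mouse. The samples were whole testes of mice at 12 days of age, 4 wild type and 4 *Tra2b-cPEko*, sequenced as stranded mRNA libraries. *Tra2b-cPEko* mice are *Tra2b* fl/- and carry *Vasa-Cre*, so that the poison exon of *Tra2b*, an exon whose inclusion stops the reading frame and leads to mRNA decay, is deleted in their germ cells. By the study's account the mice called wild type are *Tra2bPE* fl/+ with no Cre, so both genotypes carry the floxed allele and only the *Tra2b-cPEko* mice carry Cre. The other allele differs too: it is + in wild type mice and an inherited poison exon deletion (-) in *Tra2b-cPEko* mice. *Vasa-Cre* acts in germ cells from embryonic life and not in the soma. Each *Tra2b-cPEko* library mixes RNA of recombined germ cells with RNA of somatic cells in which the floxed allele is intact and the other allele lacks the poison exon. Between 41998195 and 59101569 reads fell on genes in wild type mice, and between 36757386 and 49992767 in *Tra2b-cPEko* mice. Replicate letters A to D name separate mice within a genotype.

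PTBP proteins bind pyrimidine-rich RNA, mostly next to exons whose splicing they repress, and also act on mRNA stability and translation. PTBP1 is present in most tissues, PTBP2 replaces it in neurons and is needed in male germ cells during and after meiosis, and PTBP3 was first described in blood cells. Part of the family is under its own control: PTBP1 and PTBP2 proteins lead to skipping of a short exon in the *Ptbp1* and *Ptbp2* transcripts. The skipping shifts the reading frame and sends the mRNA to nonsense-mediated decay (NMD).

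That short exon is shown because its skipping is the switch described for *Ptbp1* and *Ptbp2*. The exon has 34 bases in all 3 genes. In the GENCODE annotation of GRCm39 it is exon 9 of 13 of *Ptbp1* (chr10:79697848-79697881, plus strand), exon 10 of 14 of *Ptbp2* (chr3:119518261-119518294, minus strand) and exon 10 of 14 of *Ptbp3* (chr4:59485339-59485372, minus strand). The exon sequences, 5′ to 3′, are all coding exon and are given in capitals throughout.
Ptbp1 exon: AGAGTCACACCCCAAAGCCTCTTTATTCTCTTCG
Ptbp2 exon: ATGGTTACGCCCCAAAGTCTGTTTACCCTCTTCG
Ptbp3 exon: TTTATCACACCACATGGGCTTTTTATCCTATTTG

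The *Ptbp1* and *Ptbp2* exons were identical at 26 of 34 positions (76.5%). *Ptbp1* and *Ptbp3* shared 22 (64.7%), and *Ptbp2* and *Ptbp3* shared 21 (61.8%). Annotated transcripts that skip the exon numbered 2 for *Ptbp1* and 4 for *Ptbp2*, each of them annotated as an NMD target, and 0 for *Ptbp3*.

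The 80 intron bases before each exon are shown because PTBP proteins bind such tracts. Capitals mark the motifs TCTT and CTCT, searched with overlaps allowed.
Ptbp1 upstream (chr10:79697768-79697847): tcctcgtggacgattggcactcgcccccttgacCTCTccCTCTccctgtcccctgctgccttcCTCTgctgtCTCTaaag
Ptbp2 upstream (chr3:119518295-119518374): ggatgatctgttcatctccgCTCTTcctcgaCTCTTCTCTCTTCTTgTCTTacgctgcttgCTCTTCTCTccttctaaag
Ptbp3 upstream (chr4:59485373-59485452): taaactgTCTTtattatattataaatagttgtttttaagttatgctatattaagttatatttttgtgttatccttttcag

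The *Ptbp2* window held 6 TCTT and 6 CTCT matches and was 76.2% pyrimidine. The *Ptbp1* window held 0 TCTT and 4 CTCT matches at 73.8% pyrimidine, and the *Ptbp3* window held 1 TCTT and 0 CTCT matches at 61.2%. On the other strand (AAGA and AGAG) there were 0 matches in each of these windows. Among the 35 windows of 80 bases before the other exons of the 3 genes (all but the first exon of each), 51.4% held TCTT and 31.4% held CTCT, with a median of 1.0 and a maximum of 3 matches of both motifs together and a median pyrimidine content of 55.0%. The tracts of *Ptbp1* and *Ptbp2* thus held more matches than any of the other 35 windows, and that of *Ptbp3* did not. These are matches of letters and not measured binding sites.

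The study also probed intron 8 of *Ptbp2* (chr3:119519855-119533963, 14109 bases) with a splice-specific reverse primer, GATTACAGACTGGTGTCATG, which lies inside the intron at chr3:119525482-119525501, 8463 bases after its start. It was paired there with a forward primer in exon 8, TGATCTGCCATCTGGAGACG, and with a second reverse primer in exon 9, ATTGCTAACCAACAGGAC. The 220 bases around the intronic primer are given on the *Ptbp2* strand, with the primer site in capitals, since they are the stretch of this gene that was tested for splicing in these testes.
Ptbp2 intron 8 (chr3:119525402-119525621): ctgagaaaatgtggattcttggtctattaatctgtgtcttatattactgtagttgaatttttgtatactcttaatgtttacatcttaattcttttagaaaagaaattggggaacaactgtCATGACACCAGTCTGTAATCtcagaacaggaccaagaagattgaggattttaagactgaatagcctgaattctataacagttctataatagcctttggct

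AGAA, the core of the sequences Tra2β is known to bind, occurred 5 times on the *Ptbp2* strand of this stretch and 4 times on the other. Of 273 intron windows of the same length in *Ptbp2*, 70.7% held AGAA on the transcribed strand (median 1.0 match) and 4.8% held at least as many matches. Counts per gene do not separate spliced forms, so use of the intron 8 site and of the 34-base exons was not measured here.

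In wild type testes the family was mostly *Ptbp1*. Levels are given in CPM, read counts relative to the library total after TMM scaling. Per kilobase of the longest protein-coding transcript (3371 bases for *Ptbp1*, 3780 for *Ptbp2*, 7182 for *Ptbp3*), *Ptbp1* was at 108.0 ± 4.94 CPM per kilobase (SD, n = 4 mice), *Ptbp2* at 26.8 ± 3.02 and *Ptbp3* at 19.4 ± 1.44. The order *Ptbp1*, *Ptbp2*, *Ptbp3* held in each wild type mouse, and the ranges of *Ptbp2* (23.9 to 30.4) and *Ptbp3* (17.5 to 21.0) did not overlap. In *Tra2b-cPEko* mice *Ptbp1* was again the most abundant at 106.3 ± 4.49 CPM per kilobase, while *Ptbp2* (20.7 ± 0.438, range 20.1 to 21.1) and *Ptbp3* (20.4 ± 0.871, range 19.6 to 21.3) lay at the same level within their spread. The order of *Ptbp2* and *Ptbp3* rests on the length used: with the summed length of all annotated exons (12393 bases for *Ptbp2*, 7957 for *Ptbp3*) wild type mice had more *Ptbp3* than *Ptbp2* (17.3% and 8.09% of the family total).

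*Ptbp2* was the member whose genotypes did not overlap. In wild type mice its level was 114.7 CPM in A, 106.6 in B, 90.3 in C and 93.5 in D. In *Tra2b-cPEko* mice it was 79.6 CPM in A, 78.5 in B, 75.8 in C and 79.0 in D. All 4 *Tra2b-cPEko* mice were below the lowest wild type mouse, and they lay far closer together (SD 1.66) than the wild type mice did (SD 11.4), among which A and B were high and C and D low. The log2 fold change was -0.37 (SE 0.07, 95% interval -0.51 to -0.24), and the two-sided exact permutation test of this gene alone gave p = 0.0286, the smallest that 70 arrangements of 8 mice allow.

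Across the 19104 genes tested, *Ptbp2* ranked number 43 by p-value and number 7 among the genes lower in *Tra2b-cPEko*, while 754 genes had a larger decrease. Its adjusted p of 0.0601 in edgeR lay above the 0.05 threshold, and DESeq2 gave 3.32e-04. Of the 3 family genes, edgeR called 0, against 0.157% of all genes tested, and DESeq2 called 1, *Ptbp2*, against 2.79%. *Ptbp2* was also the 1 member with an unadjusted p under 0.05 in edgeR (15.3% of all genes, or 7.07% counting only those lower in *Tra2b-cPEko*), and the 1 member whose genotypes did not overlap (8.54% of all genes, or 4.18% lower in *Tra2b-cPEko*). Leaving out wild type C brought the edgeR adjusted p to 0.0184, and leaving out any other mouse left it between 0.0519 and 0.18.

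In bulk RNA from whole testes, fewer cells that hold *Ptbp2* mRNA and less *Ptbp2* mRNA per cell cannot be told apart.

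*Ptbp1*, which encodes the broadly expressed member, was at 340.0, 366.5, 373.9 and 376.3 CPM in wild type A to D. In *Tra2b-cPEko* A to D it was at 366.3, 351.6, 340.4 and 374.4 CPM. The genotypes overlapped over almost their whole range, from 340.0 to 376.3 CPM. The log2 fold change was -0.02 (SE 0.05, 95% interval -0.12 to 0.07, edgeR adjusted p = 0.849, DESeq2 adjusted p = 0.866), so a change as large as that of *Ptbp2* lay outside the interval.

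*Ptbp3* was at 140.3, 125.6, 150.4 and 141.9 CPM in wild type A to D. In *Tra2b-cPEko* A to D it was at 141.0, 149.9, 153.3 and 141.0 CPM. The genotypes overlapped, with wild type B the lowest mouse and *Tra2b-cPEko* C the highest. The log2 fold change was 0.07 (SE 0.06, 95% interval -0.04 to 0.18, edgeR adjusted p = 0.583, DESeq2 adjusted p = 0.675).

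**Figure D1:**
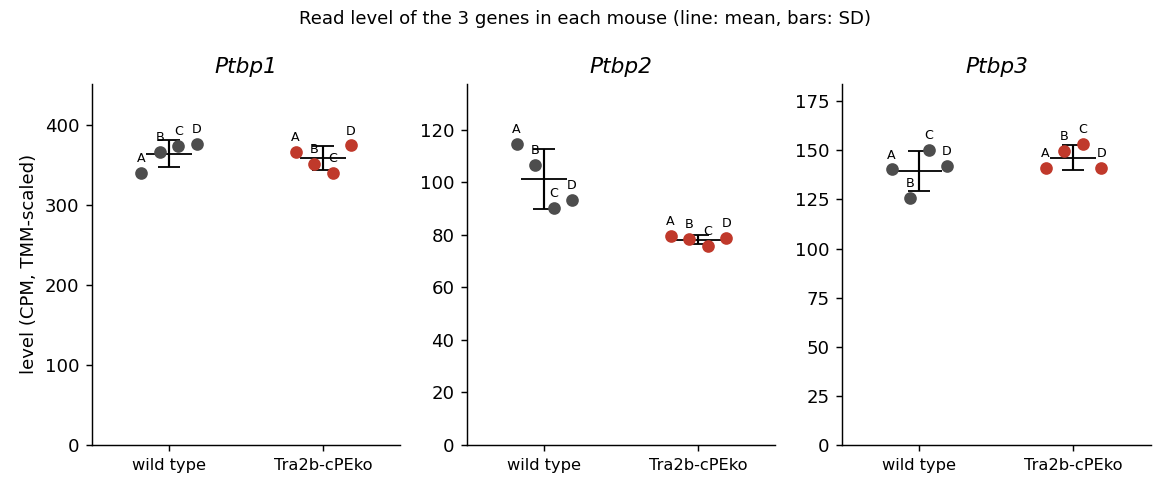
Read level (CPM, axes from 0) of *Ptbp1*, *Ptbp2* and *Ptbp3* in each mouse, with letters naming mice, horizontal lines the mean and bars the SD of 4 mice. The 4 *Tra2b-cPEko* mice lie between 75.8 and 79.6 CPM for *Ptbp2*, under all wild type mice (90.3 to 114.7), whereas the genotypes overlap for *Ptbp1* and *Ptbp3*.

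Whether *Ptbp2* moved apart from its paralogues was asked with measures taken inside each library. The share of each gene in the family total (reads per kilobase, in percent) was 20.1, 18.3, 15.3 and 15.8 for *Ptbp2* in wild type A to D. It was 14.1, 14.2, 14.1 and 13.8 in *Tra2b-cPEko* A to D. The *Tra2b-cPEko* mice were all lower, with a mean of 14.1% ± 0.187 against 17.4% ± 2.23 (SD, n = 4 per genotype). The difference was -3.34 percentage points (95% interval -6.08 to -0.603). That interval takes the spread as equal in both genotypes, which these SDs are not. It is thus too narrow, and whether 0 lies outside it is uncertain. The exact permutation p was 0.0286, and 0.05 after adjustment over the 7 family measures, which is at the threshold and not under it.

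The share of *Ptbp1* was 70.01% ± 2.12 in wild type and 72.1% ± 1.09 in *Tra2b-cPEko* mice, a difference of 2.09 points (95% interval -0.82 to 5.01, exact permutation p = 0.143, adjusted 0.2). That of *Ptbp3* was 12.6% ± 0.907 and 13.8% ± 0.967, a difference of 1.25 points (95% interval -0.373 to 2.87, exact permutation p = 0.171, adjusted 0.2). The genotypes overlapped for both. The *Ptbp1* difference was 0.44 points with summed exon length, 1.27 with no length and 1.06 without wild type A, and the *Ptbp3* difference was 2.07 points with no length and 0.83 without wild type B. With summed exon length in place of transcript length the *Ptbp2* share in *Tra2b-cPEko* mice was 6.37%, against 8.09% in wild type, and with no length it was 16.8% in wild type and 13.4% in *Tra2b-cPEko* mice, so its size depends on the length and its direction did not under these lengths.

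**Figure D2:**
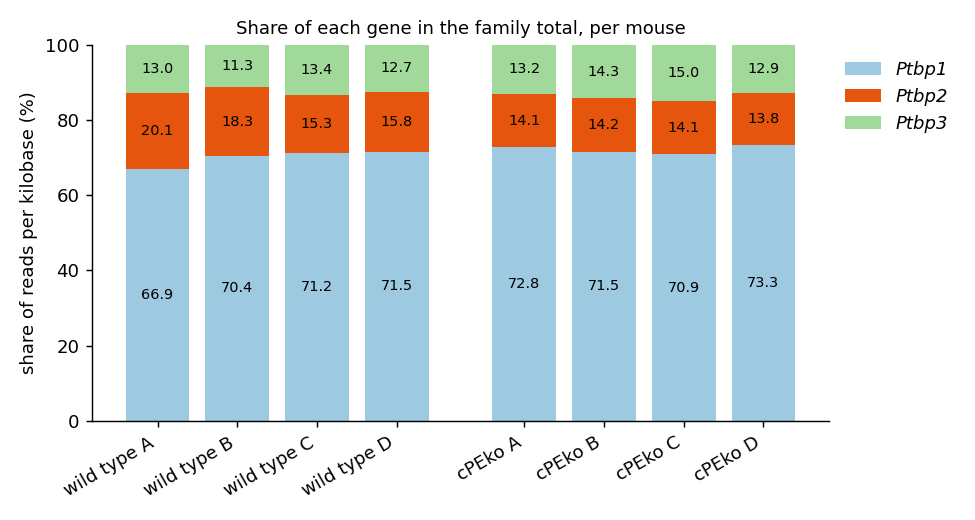
Stacked bars of the share of *Ptbp1*, *Ptbp2* and *Ptbp3* in the family total of reads per kilobase (%), 1 bar per mouse, wild type on the left and *Tra2b-cPEko* (cPEko) on the right. The middle segment, *Ptbp2*, is between 13.8% and 14.2% in each *Tra2b-cPEko* mouse and between 15.3% and 20.1% in each wild type mouse.

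The ratio of counts of 2 genes in a library needs neither a gene length nor a scaling between libraries. There were 0.337, 0.291, 0.241 and 0.248 *Ptbp2* reads per *Ptbp1* read in wild type A to D, against 0.211 to 0.223 in the *Tra2b-cPEko* mice, with no overlap. The log2 ratio differed by -0.34 (95% interval -0.62 to -0.06, exact permutation p = 0.0286, adjusted 0.05), which is a mean linear ratio of 0.219 ± 0.00571 against 0.280 ± 0.0443 (SD, n = 4). Here too the interval takes unequal spreads as equal, so whether 0 lies outside it is uncertain.

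The ratio to *Ptbp3* also separated the genotypes. Wild type A to D had 0.818, 0.849, 0.6001 and 0.658 *Ptbp2* reads per *Ptbp3* read, and the *Tra2b-cPEko* mice 0.495 to 0.565. The log2 ratio differed by -0.44 (95% interval -0.75 to -0.12, exact permutation p = 0.0286, adjusted 0.05). The ratio of *Ptbp3* to *Ptbp1*, 0.384 in wild type and 0.410 in *Tra2b-cPEko* mice, differed by 0.09 on the log2 scale (95% interval -0.11 to 0.30, exact permutation p = 0.343, adjusted 0.343), and the genotypes overlapped. That difference was 0.04 without wild type B and 0.05 without *Tra2b-cPEko* C. The measures share their reads, so the 7 tests are not independent of each other.

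**Figure D3:**
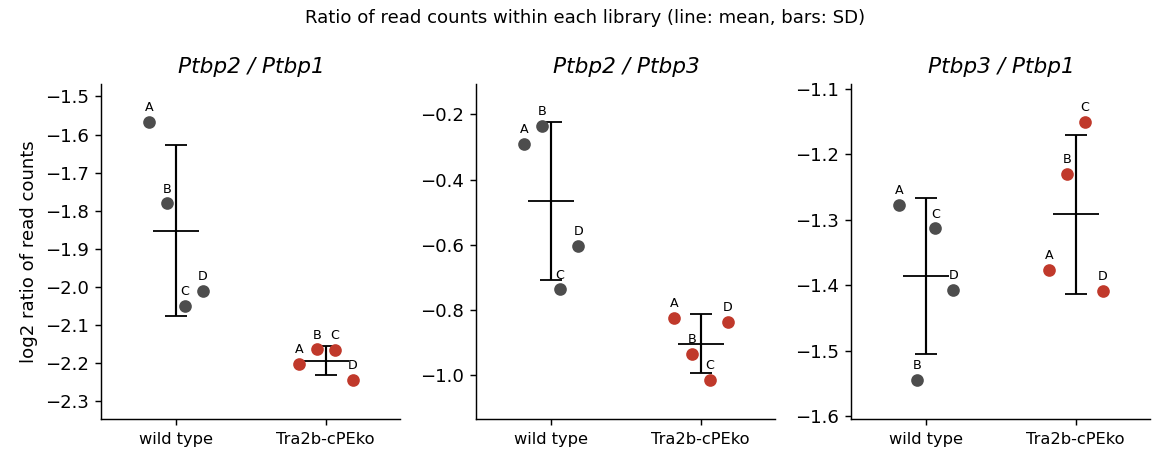
Log2 ratio of read counts of 2 family genes within each library, with letters naming mice, lines the mean and bars the SD of 4 mice (axes do not start at 0). Both ratios with *Ptbp2* on top separate the genotypes, by -0.34 against *Ptbp1* and -0.44 against *Ptbp3*, while *Ptbp3* to *Ptbp1* does not.

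The summed level of the 3 genes was 605.0 ± 9.61 CPM in wild type (595.0, 598.7, 614.6 and 611.7 in A to D) and 582.7 ± 10.6 CPM in *Tra2b-cPEko* mice (569.5 to 594.4). The genotypes did not overlap, although the lowest wild type mouse and the highest *Tra2b-cPEko* mouse were close. The difference was -0.05 on the log2 scale (95% interval -0.10 to -0.01, exact permutation p = 0.0286, adjusted 0.05), or -3.69% of the summed level. For the mean level of *Ptbp2* alone the difference was -22.75%.

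*Tra2b* and its paralogue *Tra2a*, both splicing activators of the SR-like family, were in the same libraries. *Tra2b* was at 158.2, 165.7, 155.8 and 175.6 CPM in wild type A to D, and at 199.9, 190.3, 192.1 and 208.9 CPM in *Tra2b-cPEko* A to D, a log2 fold change of 0.27 (SE 0.05, edgeR adjusted p = 0.0552, DESeq2 1.95e-04). The *Tra2b-cPEko* mice were all higher, and 7 of 19 alternatives passed the threshold, including the edgeR fits without wild type D (0.0488) and without *Tra2b-cPEko* B (0.0487). *Tra2a* was at 138.4, 144.1, 120.7 and 111.2 CPM against 69.4, 73.2, 65.1 and 70.4 CPM, a log2 fold change of -0.89 (SE 0.08, edgeR adjusted p = 0.00231), and again no mice overlapped. As for *Ptbp2*, wild type A and B were the higher wild type mice for *Tra2a*.

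Testis markers were present in each library, and 2 lists of germ cells in meiosis stood out by wild type mouse. The list of leptotene and zygotene spermatocytes, the first stages of meiosis (29 genes, led by *Tex15*, which protects meiotic chromosomes), summed to 3949, 3443, 3025 and 3177 CPM in wild type A to D and to 3156, 3238, 3195 and 3080 CPM in *Tra2b-cPEko* A to D. The list of pachytene spermatocytes, the next stage (12 genes, 10 tested, led by the chaperone *Hspa2*), summed to 487.2, 525.5, 271.1 and 322.6 CPM, and to 348.0, 301.6, 380.8 and 366.0 CPM. Wild type A and B were the highest mice for both lists and for *Ptbp2*, while wild type C and D lay in or near the range of the *Tra2b-cPEko* mice for both lists and above them for *Ptbp2*. No defining marker was at 0 in all libraries.

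With the mean log2 CPM of the leptotene and zygotene list as a covariate, the *Ptbp2* log2 fold change was -0.28 (SE 0.04, edgeR adjusted p = 0.0469), and with the pachytene list it was -0.29 (SE 0.05, adjusted p = 0.0322). Both fits put *Ptbp2* under the threshold with a smaller difference. The leptotene and zygotene list holds *Stag3*, *Mei1* and *Majin*, which the study reports as lower in *Tra2b-cPEko* testes. Such a covariate can carry part of the genotype difference, so these fits cannot separate genotype from cell stage. The part of cell stage in the *Ptbp2* difference was not tested. In the leptotene and zygotene list 8 of 29 genes were lower and 2 higher at an unadjusted edgeR p under 0.05 (7.07% of all genes tested were lower and 15.3% passed in either direction), and 0 were called by edgeR and 3 by DESeq2 (0.157% and 2.79% of all genes). In the pachytene list 1 of 10 was lower at that p, and 0 were called by either tool. Whatever their p, 23 genes were lower and 6 higher in the leptotene and zygotene list. In the pachytene list 8 were lower and 2 higher (50.33% of all genes tested were lower). The median log2 fold changes of the lists were -0.15 and -0.19, beside 0.00 over all genes.

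**Figure D4:**
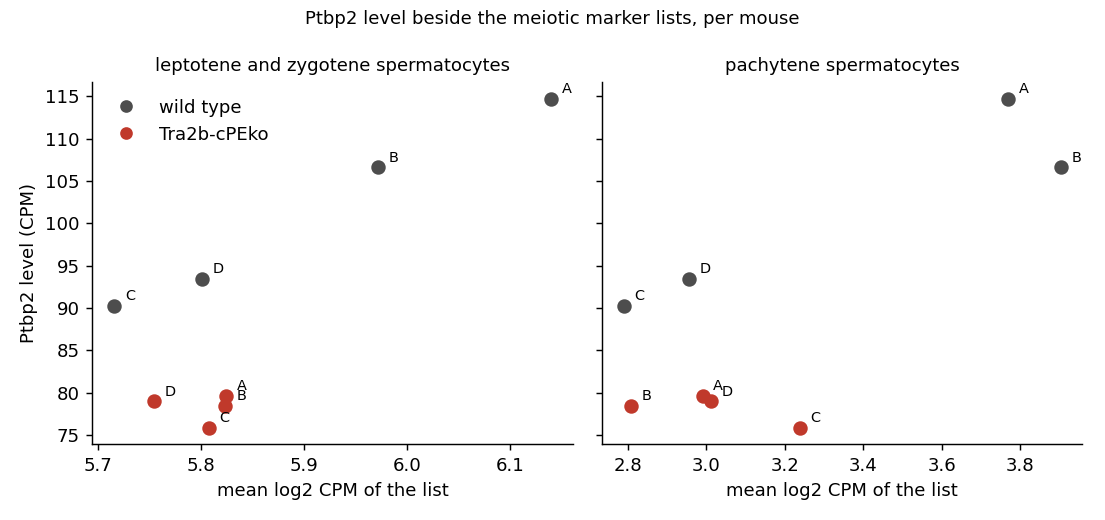
*Ptbp2* level (CPM) against the mean log2 CPM of the leptotene and zygotene list (left) and of the pachytene list (right), 1 point per mouse with its letter (axes do not start at 0). Wild type C and D lie at 90.3 and 93.5 CPM of *Ptbp2* and the *Tra2b-cPEko* mice at 75.8 to 79.6 CPM. On the pachytene list *Tra2b-cPEko* A, C and D (2.991, 3.239 and 3.013) lie to the right of wild type C and D (2.79 and 2.957), and B (2.809) lies between them. On the leptotene and zygotene list *Tra2b-cPEko* A, B and C (5.825, 5.824 and 5.808) lie to the right of wild type C and D (5.716 and 5.801), and D (5.755) lies between them.

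The lists of earlier germ cells and of Sertoli cells were read in the same way. Differentiating spermatogonia (7 genes, led by *Stra8*, which starts meiosis) had a median log2 fold change of -0.11. All 7 means were lower, beside 50.33% of all genes tested. In this list 2 of 7 genes were lower at an unadjusted edgeR p under 0.05 (7.07% of all genes tested). Of these, *Sohlh1*, a transcription factor of spermatogonia, was called by edgeR (0.157% of all genes) and by DESeq2 (2.79%). *Sohlh1* is named here after its values were seen (47.5 and 37.4 CPM, log2 fold change -0.34, edgeR adjusted p = 0.0341). The call was lost with limma-voom, without robust estimation, with the Sertoli cell list as a covariate, and without wild type B or *Tra2b-cPEko* A, C or D, where 0 genes of any list were called. The summed level of the list was 586.2 ± 19.4 CPM in wild type and 523.0 ± 28.5 CPM in *Tra2b-cPEko* mice, and the genotypes overlapped (557.8 CPM in wild type B, 558.5 CPM in *Tra2b-cPEko* B), while the list mean did not overlap, at 6.13 to 6.20 log2 CPM in wild type and 5.90 to 6.04 in *Tra2b-cPEko* mice. Undifferentiated spermatogonia (11 genes, led by *Zbtb16*) summed to 319.0 ± 29.8 CPM in wild type and 313.4 ± 8.19 CPM in *Tra2b-cPEko* mice (SD, n = 4). In that list 6 means were higher and 5 lower, and 1 gene was lower at an unadjusted edgeR p under 0.05. Sertoli cells (10 genes, led by *Clu*) summed to 6518 ± 235.4 and 6521 ± 348.1 CPM (SD, n = 4). There 3 means were higher and 7 lower (median log2 fold change -0.04), and 1 gene was lower at that p. Neither list had a gene called by edgeR or DESeq2.

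Reads that fell outside annotated exons made up 12.8%, 12.6%, 12.4% and 12.6% of all reads in wild type A to D and 13.2%, 13.5%, 13.5% and 13.6% in *Tra2b-cPEko* A to D. This share was higher in all *Tra2b-cPEko* libraries. The macrophage list (8 genes, led by *Mrc1*) also separated the genotypes, with 8 of 8 means higher and summed levels of 135.7 ± 10.6 CPM in wild type and 165.1 ± 13.7 CPM in *Tra2b-cPEko* mice (SD, n = 4). The part that this share, the macrophage list and the differentiating spermatogonia have in the *Ptbp2* difference was not tested.

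**Figure D5:**
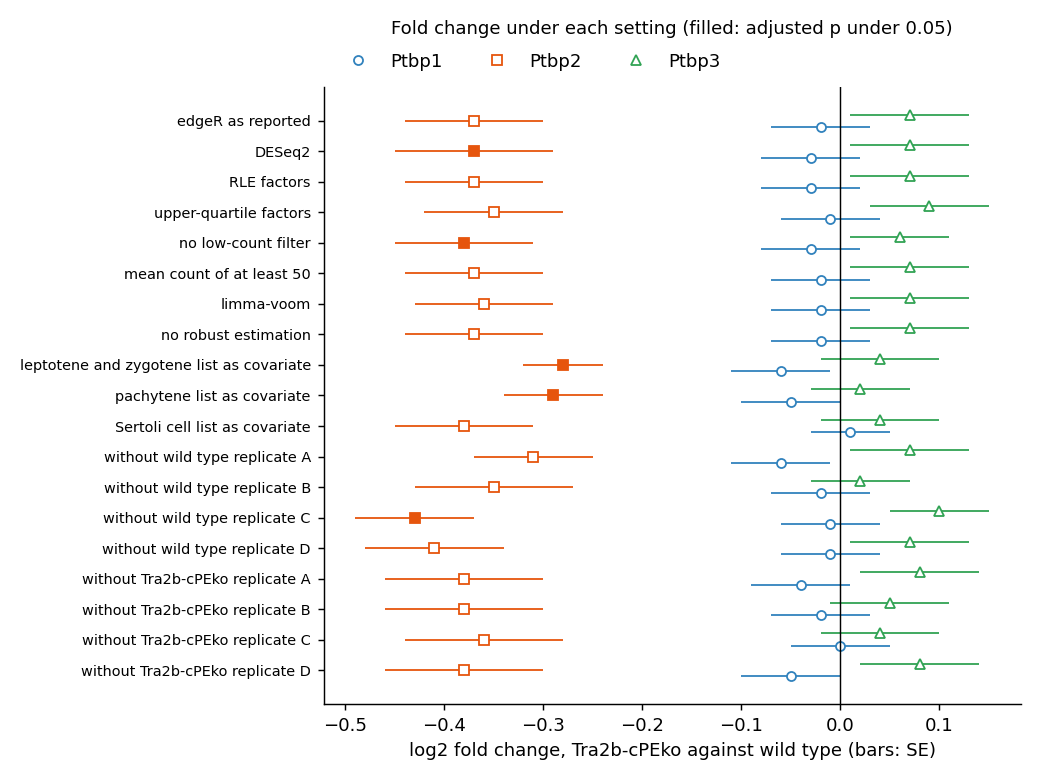
Log2 fold change (bars: SE) of the 3 genes between *Tra2b-cPEko* and wild type mice, under edgeR as reported and 18 other settings, filled where the adjusted p was under 0.05. *Ptbp2* lies between -0.43 and -0.28 in each setting shown and is filled in 5 of the 18, while *Ptbp1* and *Ptbp3* lie between -0.06 and 0.10 and are never filled. The fit with the replicate letter as a block is not shown, and over all 19 alternatives *Ptbp2* was under the threshold in 6.

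The genes that work with or against PTBP proteins were then read from lists. Cofactors and relatives with the same RNA recognition motifs numbered 5. *Raver1* and *Raver2*, whose proteins bind PTBP1 as co-repressors, were at 45.0 and 24.9 CPM in wild type and 42.3 and 23.3 CPM in *Tra2b-cPEko* mice. *Matr3*, which encodes an RNA-binding partner of PTBP1, was at 463.5 and 457.2 CPM, and the splicing repressors *Hnrnpl* and *Hnrnpll* were at 441.3 and 437.1 CPM and at 98.2 and 94.0 CPM. All 5 log2 fold changes lay between -0.10 and -0.01 (median -0.06). Of these genes 0 had an unadjusted edgeR p under 0.05 (15.3% of all genes tested). By edgeR or DESeq2 0 were called (0.157% and 2.79% of all genes).

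Among 11 factors known to oppose PTBP proteins, 10 were tested, 5 with higher and 5 with lower means (median log2 fold change -0.01). Neither edgeR nor DESeq2 called any (0 of 10, against 0.157% and 2.79% of all genes). Beside 15.3% of all genes tested (7.07% lower), 2 of the 10 reached an unadjusted edgeR p under 0.05, both lower. These were *Tial1*, a relative of *Tia1* that promotes use of weak splice sites next to U-rich tracts (97.6 ± 6.30 and 87.4 ± 3.11 CPM, log2 fold change -0.16, edgeR adjusted p = 0.192), and *Rbm4b* (43.9 ± 2.78 and 39.6 ± 2.28 CPM, -0.15, edgeR adjusted p = 0.268), and the genotypes overlapped for both. *Srrm4*, which promotes neural exons that PTBP proteins repress, was low in these testes at 5.60 ± 1.29 CPM in wild type and 6.12 ± 0.67 CPM in *Tra2b-cPEko* mice (edgeR adjusted p = 0.738).

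Genes known to respond to PTBP proteins gave no calls either. Of 10 genes whose mRNA level these proteins are known to set, 9 were tested, 2 with higher and 7 with lower means (median log2 fold change -0.04). Of the 9, 0 had an unadjusted edgeR p under 0.05 (15.3% of all genes tested). By edgeR or DESeq2 0 were called (0.157% and 2.79% of all genes), and with so few genes a count of 0 is near these shares. The tenth, *Pgk2*, the glycolytic enzyme of late spermatogenesis whose mRNA PTBP2 binds, had 4 to 15 reads per library and was not tested (0.218 ± 0.125 and 0.160 ± 0.0581 CPM). Of 15 genes with exons known to be regulated by PTBP proteins, 14 were tested, 9 with higher and 5 with lower means (median 0.03). Beside 15.3% of all genes tested, 1 of the 14 had an unadjusted edgeR p under 0.05, and 0 were called by edgeR or DESeq2 (0.157% and 2.79% of all genes). That 1 gene was *Fgfr1*, a growth factor receptor (82.3 ± 6.23 and 89.9 ± 3.89 CPM, log2 fold change 0.13, edgeR adjusted p = 0.319). *Cdc42*, a small GTPase of cell polarity, was at 403.1 ± 14.0 CPM in wild type and 390.7 ± 9.35 CPM in *Tra2b-cPEko* mice (edgeR adjusted p = 0.632). These are levels of whole genes, which do not show whether their exons changed.

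Over all 19104 genes tested the median log2 fold change was 0.00, with 9489 genes higher and 9615 lower, so the medians of the PTBP lists were within 0.07 of it.

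The genes whose pattern over the 8 mice was most like that of each member were found by the root mean square (RMS) difference in log2 CPM, each gene being centred on its wild type mean, among 10849 genes with at least 10 CPM. For *Ptbp2* these were *Prdx4*, a peroxiredoxin of the endoplasmic reticulum (RMS 0.05), *Sdk1*, a cell adhesion molecule (0.05), *Ints8*, a subunit of the Integrator complex (0.06), *Gins1*, a subunit of the replicative helicase (0.06), and 4930579G24Rik (0.07). Each of the 5 had wild type A or B highest and no overlap between genotypes, which the measure itself favours. *Ints8* was at 132.7, 124.9, 116.0 and 111.4 CPM in wild type A to D and at 93.7, 99.8, 95.6 and 92.1 CPM in *Tra2b-cPEko* A to D, with a log2 fold change of -0.35 (edgeR adjusted p = 0.0344, DESeq2 1.65e-05). Its adjusted p was not under the threshold in 8 of 19 alternatives, among them limma-voom (0.067) and the edgeR fits without wild type A or B or without *Tra2b-cPEko* A, C or D (0.0951 to 0.151). *Prdx4* had a log2 fold change of -0.32 (edgeR adjusted p = 0.0735, DESeq2 0.00157) and passed in 4 of 19.

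The genes most like *Ptbp1* were *Dhx35*, *Bcar3*, *Stk40*, *Kctd18* and *Gorasp1*, with RMS differences of 0.02 for each. Those most like *Ptbp3* were *Pcyt1a*, *Gm39469*, *Edem3*, *Zmpste24* and *Rock2*, at 0.02 to 0.03. These patterns are mostly flat, so many genes come close to them. With a minimum of 1 CPM, 5, 3 and 5 of the 5 genes were again named for *Ptbp1*, *Ptbp2* and *Ptbp3*. For *Ptbp2* the genes that came in were *Rnf212*, which was then the closest of all (RMS 0.04), and *Ccnb1ip1* (0.05), both of which act in meiotic crossover formation. They are named here after their values were seen.

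How well the 3 genes can be counted apart was checked on the annotation. Over 4 exons of equal size in all 3 genes (422 bases in all), *Ptbp1* and *Ptbp2* were identical at 72.5% of bases, *Ptbp1* and *Ptbp3* at 70.9% and *Ptbp2* and *Ptbp3* at 70.4%. The longest stretch that the transcripts of any pair shared was 21 bases. *Ptbp2* and *Ptbp3* had no near-identical copy at 90% identity over 100 bases, apart from their own loci. For *Ptbp1*, 2 genes on chromosome 13 held near copies, the long noncoding RNA *Gm46400* (905 bases at 97.0%), which had 0 to 1 reads per library, and the processed pseudogene *Gm4900* (890 bases at 97.0%), for which no count was used here. *Ptbp1* (chr10:79690261-79700605) also overlaps *Plppr3* and E130317F20Rik on the other strand, which had 522 to 809 and 185 to 353 reads, against 12910 to 22212 for *Ptbp1*. *Gm17134* overlaps it as well. *Ptbp2* overlaps *Gm43300* and *Gm42664* on its own strand and *Gm42804* on the other, and *Ptbp3* overlaps *Gm12529* on the other, and no counts of these genes were used here. The strand setting of the counts is not stated, so reads over these overlaps are uncertain. *Ptbp2* (chr3:119509386-119578115) and *Ptbp3* (chr4:59471868-59549371) had 2880 to 5516 and 5177 to 8378 reads per library.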

How the data were processed

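Whole testis mRNA was measured in 8 mice, 4 per genotype. The authors deposited 1 table of counts per mouse (reads per gene symbol, not normalised). The submitters' processing notes name HISAT2 2.2.1, SAMtools 1.7.1, HTSeq 2.0.2 and deepTools 3.5.1 with GRCm39, while the methods describe Salmon, and the 5 summary lines of each table are of the form HTSeq writes. These lines were left out of all tests. Reads on genes were 66.4% to 69.0% of the reads in a table. The strand setting is not given in the sources used here.

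Counts were fitted in edgeR 4.0.16 (R 4.3.3) over all genes: filterByExpr (count 10, total 15), TMM, robust quasi-likelihood F-test with genotype alone, Benjamini-Hochberg adjustment over 19104 genes, threshold 0.05. DESeq2 1.42.0, limma-voom (limma 3.58.1), RLE and upper-quartile factors, other filters, marker list covariates, the replicate letter as a block and fits without each mouse were alternatives. Log2 CPM used a prior count of 2. The SE of an edgeR fold change was taken from its F statistic. The 95% intervals of single genes are normal intervals from that SE, which are narrower than t intervals. Single values had two-sided exact permutation tests (70 arrangements of 8 mice), adjusted over the 7 family measures, whose intervals are 95% t intervals with 6 degrees of freedom. These t intervals take the spread as equal in both genotypes. For the *Ptbp2* share and ratios it was not, and the intervals there are too narrow. Between libraries of the same genotype, chi-square over its degrees of freedom was 6.24 to 19.1, above the value of 1 that a library counted again would give. The scripts were tested on simulated data.

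Positions, lengths and sequences came from GENCODE M39 (GRCm39), and copies from BLAST+ 2.17.0. Primer sequences are the study's. The genes named besides the 3 members are *Tra2b*, *Tra2a*, 8 fixed genes linked to PTBP proteins, list genes with the smallest p, the most abundant gene of each cell type list, and the 5 genes most alike each member. The members and the 13 gene lists were chosen with earlier results of these data known. The methods state that the mice were separate animals, and the labels name no batch or litter.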

Additional observations from a re-analysis of the deposited data

Results flagged for a closer look

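Of 94 groups of 4 mice looked at (each named gene or measure in each genotype), 2 held a mouse far from the other 3 by Dixon's criterion, where chance gives about 4.7. *Clu*, the most abundant Sertoli cell marker, was at 3396 CPM in wild type A against 3703 to 3744 in the other wild type mice. *Mrc1*, the most abundant macrophage marker, was at 46.6 CPM in wild type C against 36.2 to 38.0 CPM in the others. None of the values of *Ptbp1*, *Ptbp2*, *Ptbp3*, their shares or their ratios met the criterion in either genotype.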

How the results depend on the processing

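*Ptbp2* kept its direction under all 19 alternatives (-0.43 to -0.28), and its adjusted p ran from 3.32e-04 to 0.18. It passed the threshold with DESeq2 (-0.37), with no low-count filter (-0.38, edgeR adjusted p = 0.0127), with the leptotene and zygotene list (-0.28) or the pachytene list (-0.29) as a covariate, and with the replicate letter as a block (-0.37, edgeR adjusted p = 0.0452). The letters only name separate mice, so a block by letter does not follow from the design. Without each mouse *Ptbp2* ranged from -0.43 to -0.31. The -0.43 was without wild type C, where it also passed (edgeR adjusted p = 0.0184), which makes 6 of the 19 alternatives. *Ptbp3* lay between 0.02 and 0.10 and *Ptbp1* between -0.06 and 0.01, the latter value being the only reversal (Sertoli cell list as a covariate), and neither passed the threshold. The shares, ratios and total of the family kept their direction under the alternatives run for them, with the *Ptbp2* share difference between -4.03 and -1.72 points. They were not tested without each mouse.

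The number of genes called, 30 in edgeR, was 507 with DESeq2, 142 with the pachytene list and 15 with the leptotene and zygotene list as a covariate, 123 with no low-count filter, 67 with the replicate block, 58 with upper-quartile factors, 14 with a mean count of at least 50, 12 with no robust estimation, 11 with limma-voom and 10 with the Sertoli cell list. Without each mouse it was between 3 (without *Tra2b-cPEko* D) and 84 (without wild type C), with 9 without wild type A, wild type B or *Tra2b-cPEko* C, 10 without *Tra2b-cPEko* A and 76 without *Tra2b-cPEko* B. Of the list genes, 1 was called, against 7 with DESeq2, 4 with the replicate block or the pachytene list, 0 with limma-voom, no robust estimation or the Sertoli cell list, and 0 to 2 without each mouse. The cause was not tested.

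Of 684 values for 36 other named genes, 636 kept direction and side of the threshold, 8 lost a call (all *Ints8*) and 14 gained one (7 for *Tra2b*, 4 for *Prdx4* and 1 each for *Sdk1*, *Gins1* and *Mrc1*), and 26 values in 11 genes, none of them called, changed sign. With the leptotene and zygotene list as a covariate these were *Matr3* 0.01, *Srrm4* -0.01, *Zbtb16* -0.05, *Tex15* 0.04 and *Hspa2* 0.17. With the pachytene list they were *Srrm4* -0.04, *Zbtb16* -0.08 and *Hspa2* 0.24. With the Sertoli cell list they were *Dhx35* 0.01, *Kctd18* 0.02 and *Gorasp1* 0.01, and with upper-quartile factors *Kctd18* 0.01. Without each mouse the ranges were -0.04 to 0.02 for *Matr3*, -0.04 to 0.01 for *Hnrnpl*, -0.02 to 0.10 for *Zbtb16*, -0.05 to 0.05 for *Tex15*, -0.21 to 0.10 for *Hspa2*, -0.06 to 0.01 for *Col1a1*, -0.01 to 0.10 for *Cdh5* and -0.03 to 0.02 for *Kctd18*.

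Mice with the same letter did not deviate together (correlations over genes of 0.03, -0.14, -0.04 and 0.12 for A to D), and wild type C went best with *Tra2b-cPEko* B (0.15), so the letters were not taken as pairs. As pairs, 4 against 4 mice could not give a sign-flip p under 0.125. The precision is limited by 4 mice a genotype with a biological coefficient of variation of 9.56%.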

Other observations

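Of the 8 macrophage markers, 6 had an unadjusted edgeR p under 0.05 (15.3% of all genes tested), 0 were called by edgeR (0.157%) and 2 by DESeq2 (2.79%), and the median log2 fold change was 0.26. *Mrc1*, a mannose receptor of tissue macrophages, was at 49.2 ± 6.20 CPM in *Tra2b-cPEko* and 39.5 ± 4.79 CPM in wild type mice (edgeR adjusted p = 0.193).

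Leydig cell markers (7 genes, led by *Nr5a1*, a regulator of steroid synthesis) had a median log2 fold change of 0.40 and a wide spread, with summed levels of 683.9 ± 104.5 CPM in *Tra2b-cPEko* and 616.1 ± 19.6 CPM in wild type mice. Of these genes 5 had higher and 2 lower means, with *Nr5a1* among the lower (log2 fold change -0.05). At an unadjusted edgeR p under 0.05 there was 1, beside 15.3% of all genes tested. By edgeR 0 were called (0.157% of all genes) and by DESeq2 1 (2.79%). Peritubular and stromal markers (7 genes, led by *Col1a1*) summed to 2939 ± 179.1 and 2848 ± 144.5 CPM, with 2 genes at an unadjusted p under 0.05, and endothelial markers (6 genes, led by *Cdh5*) to 164.2 ± 9.64 and 158.8 ± 13.5 CPM, with 0 such genes. Neither list had a gene called by edgeR or DESeq2.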
